A study of Mus musculus with 6 samples.

Results

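Integrins and laminins are the receptors and ligands of the contact between a heart cell and its basement membrane. The members described here are the genes of the integrin alpha, integrin beta and laminin alpha, beta and gamma chains, chosen by symbol alone: Itga or Itgb followed by a number, Itgav, and Lama, Lamb or Lamc followed by a number. The rule found 30 such genes among the 25901 rows of the table, 20 of integrin chains and 10 of laminin chains, and each had 1 row. RNA abundance had been measured in whole hearts of 3 wild-type mice (WT2368, WT2379 and WT2378) and 3 SRAKO mice (SRAKO2365, SRAKO2371 and SRAKO2372), all treated with isoproterenol, which drives beta-adrenoceptors and makes the heart grow, for 4 weeks. The knockout is of SRA, the steroid receptor RNA activator, a coactivator of nuclear receptors transcribed from Sra1, and the comparison asks which transcripts differ with its loss under that stimulus. Hearts without isoproterenol were not analysed here, and the labels give no strain, age, sex or knockout design.

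A laminin is a trimer of an alpha, a beta and a gamma chain that polymerises into the sheet on which the basement membrane is built. An integrin is a dimer of an alpha and a beta chain that crosses the cell membrane, binds laminin, collagen, fibronectin or another ligand outside, and couples through talin, kindlin and the kinase-like adaptor Ilk to actin inside. In heart muscle the laminin receptors sit at the costamere, where the Z-disc meets the membrane, next to the dystroglycan complex, which binds the same laminins.

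Values are FPKM, which are scaled by transcript length and so can be compared between genes. Each difference is the SRAKO mean less the WT mean of log2(FPKM + 1), a scale that shrinks the change of weak genes. The test was limma's, with Benjamini-Hochberg adjustment over the 10201 rows that reached an FPKM of 1 in 3 or more hearts. The p-values measure the spread between these samples, since the labels do not say outright that the hearts came from separate litters or experiments. In whole hearts, fewer cells of a type and less RNA per cell cannot be told apart.

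Sra1 was at an FPKM of 4.40, 6.31 and 4.23 in WT2368, WT2379 and WT2378 and at 1.96, 1.78 and 2.05 in SRAKO2365, SRAKO2371 and SRAKO2372. The groups did not overlap, but the row also holds 1 transcript of the neighbour Apbb3, so the rest of the signal cannot be assigned. WT2368 stood apart from the other hearts before any comparison. Its mitochondrial ribosomal RNA mt-Rnr1 was at 4548 against 879 to 1896 elsewhere, its tested rows lay at a median of -0.13 from their mean over hearts on the log2 scale against -0.00 to 0.07 in the others, and its depth was the lowest. Taking the commonest product of FPKM and length among weak rows as 1 fragment, an FPKM of 1 stood for 14.6 fragments per kilobase in WT2368 and for 17.8 to 23.1 in the other 5 hearts. The cardiomyocyte markers were abundant in all hearts, with Myh6, Tnnt2, Actc1, Ttn, Ryr2 and Myl2 summing to an FPKM of 9006 to 10940 in WT and 9665 to 9757 in SRAKO.

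No integrin or laminin chain passed the test, and the fitted differences were small. Of the 30 members 18 passed the filter, 11 integrins and 7 laminins, and 9 of the 18 were lower and 9 higher in SRAKO. Differences ran from -0.28 for Itga6 to 0.24 for Itgb2, with a median of -0.01, beside 0.01 over all tested rows, of which 46.5% were lower. By limma with Benjamini-Hochberg adjustment 0 of the 18 were called, where 0.0196% of all rows were (every member's adjusted p was 0.999), and 0 had an unadjusted p under 0.05, where 3.46% of all rows had. The 95% confidence intervals of all 18 lay within 1 log2 unit of 0, and those of 13 lay within 0.5.

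**Figure D1:**
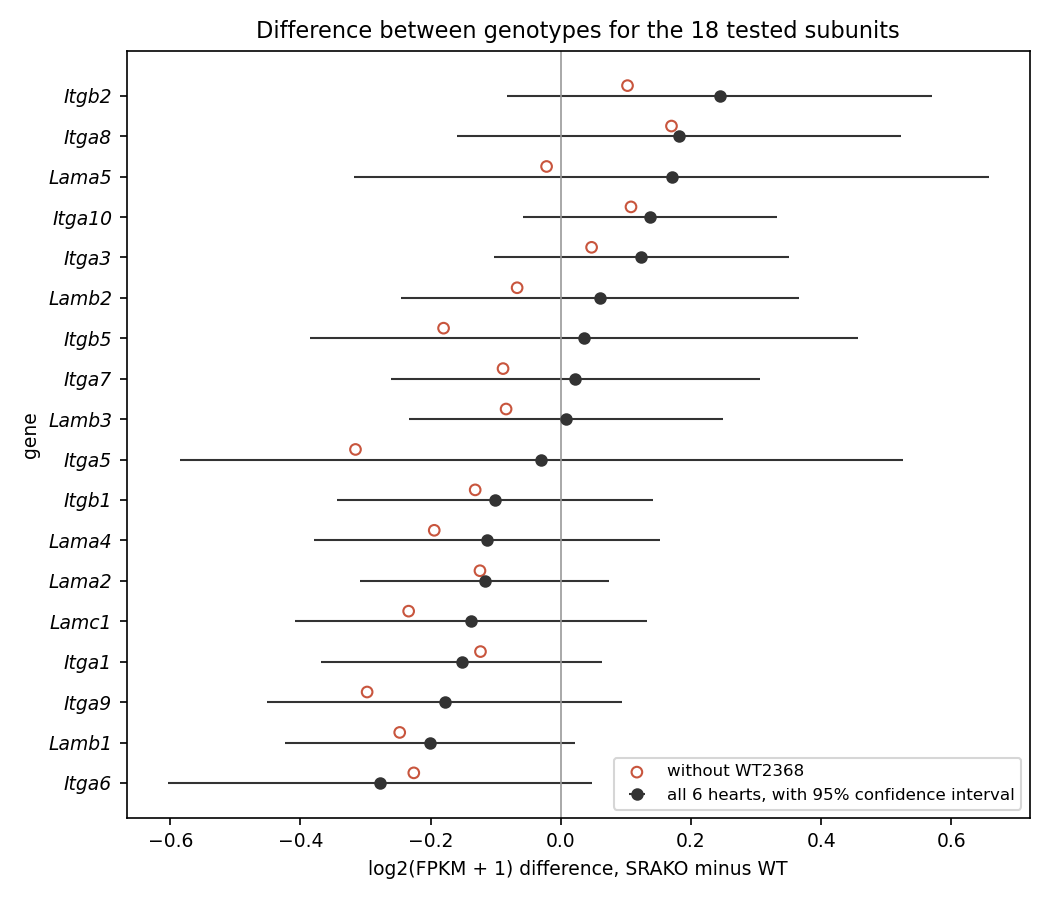
Difference between genotypes on the log2(FPKM + 1) scale (SRAKO minus WT) for each of the 18 tested subunits; filled points are limma estimates from 6 hearts with 95% confidence intervals, open points the estimates without WT2368. Every interval includes 0, and 14 open points lie below 0 against 9 filled ones.

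The 3 SRAKO hearts lay apart from the 3 WT hearts in 4 of the 18 tested members, 22.2%, where 8.05% of all tested rows did so. Lama2, Lamb1 and Itga6 had every SRAKO heart under every WT heart (3.76% of all rows did), and the row of Itga10 had every SRAKO heart above (4.28%). Whether these shares differ was not tested.

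Promoters are printed for a pair of laminin beta chains and the alpha chain of muscle laminin. They were chosen for their values: Lamb1 and Lama2 were lower in all SRAKO hearts, while Lamb2, which pairs with the same partners, was not. Neither difference passed limma (unadjusted p = 0.07 for Lamb1 and 0.20 for Lama2). Any link between these sequences and the values was not tested. Each line runs from 250 bases before the annotated start to 50 bases from the start on, 5′ to 3′ on the gene's strand, from RefSeq on GRCm38.p6. For Lamb1 and Lamb2 that RefSeq start lies inside the GENCODE span given below, so part of the stretch before it lies within that span. Capitals mark matches on either strand to the GC box (GGGCGG), the CCAAT box (its name gives its letters), the TATA box (TATAAA), the core bound by many nuclear receptors (AGGTCA) and the core of the cAMP response element (TGACG). The windows are chr12:31265043-31265342 on the plus strand for Lamb1, chr9:108479612-108479911 on the plus strand for Lamb2 and chr10:27616893-27617192 on the minus strand for Lama2.
Lamb1: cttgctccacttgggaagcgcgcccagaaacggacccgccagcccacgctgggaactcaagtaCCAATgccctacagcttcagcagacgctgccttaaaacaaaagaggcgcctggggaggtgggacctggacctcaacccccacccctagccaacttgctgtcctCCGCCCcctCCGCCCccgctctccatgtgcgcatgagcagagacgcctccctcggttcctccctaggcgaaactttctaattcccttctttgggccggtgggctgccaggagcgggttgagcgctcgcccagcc
Lamb2: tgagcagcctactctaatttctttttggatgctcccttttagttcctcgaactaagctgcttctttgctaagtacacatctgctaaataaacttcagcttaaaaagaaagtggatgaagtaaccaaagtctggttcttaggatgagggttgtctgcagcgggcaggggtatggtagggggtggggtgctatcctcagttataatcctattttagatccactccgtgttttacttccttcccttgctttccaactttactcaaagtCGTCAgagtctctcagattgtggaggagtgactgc
Lama2: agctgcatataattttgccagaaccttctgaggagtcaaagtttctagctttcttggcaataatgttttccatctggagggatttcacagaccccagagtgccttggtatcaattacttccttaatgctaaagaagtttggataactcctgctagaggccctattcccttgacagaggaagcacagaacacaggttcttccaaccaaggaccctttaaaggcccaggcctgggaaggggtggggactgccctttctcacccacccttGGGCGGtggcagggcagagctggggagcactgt

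The Lamb1 window had a GC content of 63.7% with 2 GC boxes and 1 CCAAT box, the Lama2 window 50.3% with 1 GC box, and the Lamb2 window 44.0% with 1 cAMP response core, none of these matches overlapping another. Of 32851 promoters of this length 35.7% hold a GC box, 37.4% a CCAAT box, 13.6% a TATA box, 16.3% the nuclear receptor core and 20.8% the cAMP response core. Their median GC content was 52.7%. The table gave 23 windows for 20 of the members. Among these 23, 11 held a GC box, 3 a CCAAT box and 5 the cAMP response core, and 0 held a TATA box or the nuclear receptor core. A match is a run of letters and not a measured binding site.

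Lamb1 encodes the beta chain of many laminins, vascular and developmental ones among them. It spans chromosome 12 from 31265234 to 31329644 on the plus strand (GRCm38, GENCODE M21). Its FPKM was 6.72, 7.50 and 7.49 in the WT hearts and 6.53, 5.65 and 6.31 in the SRAKO hearts, in the order of names given above, which holds throughout. All SRAKO hearts were below all WT hearts, though SRAKO2365 and WT2368 lay close together. The means were 7.24 ± 0.449 and 6.17 ± 0.457 (SD, n = 3 each), so that the log2 difference came to -0.20 (95% confidence interval -0.42 to 0.02).

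Lamb2, another laminin beta chain, was the most abundant member in the heart. It spans chromosome 9 from 108479736 to 108490530 on the plus strand. Its FPKM was 39.1, 49.9 and 52.7 in WT and 46.7, 50.5 and 49.6 in SRAKO, so the groups overlapped and WT2368 was the lowest heart. The log2 difference was 0.06 (95% confidence interval -0.25 to 0.37), and it was -0.07 without WT2368. Lamb3, a chain of epithelial laminin, was at 1.34, 1.84 and 1.83 in WT and 1.77, 1.67 and 1.59 in SRAKO, a difference of 0.01 that became -0.08 without WT2368.

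The ratio between the beta chains does not depend on how a heart was scaled. Lamb1 made up 14.2%, 12.7% and 12.1% of the summed laminin beta FPKM in WT and 11.9%, 9.78% and 11.0% in SRAKO. The share was lower in 3 of 3 SRAKO hearts, by 2.12 percentage points on average (-2.12; exact permutation test, two-sided, p = 0.1, adjusted p = 0.45 over 18 shares). Since 3 hearts against 3 allow no p below 0.1, no share could pass. The nearest hearts, WT2378 and SRAKO2365, differed by less than the SD within either group, 1.12 in WT and 1.05 in SRAKO.

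Lama2, the alpha chain of the main laminin of adult muscle, whose loss causes a congenital muscular dystrophy, spans chromosome 10 from 27616942 back to 26980036 on the minus strand. It was at 4.41, 4.41 and 4.58 in WT and at 4.24, 3.97 and 3.92 in SRAKO. The WT hearts lay close together, and all SRAKO hearts were below them. The means were 4.47 ± 0.0951 and 4.04 ± 0.176 (SD, n = 3 each), 90.5% of WT, and the log2 difference was -0.12 (95% confidence interval -0.31 to 0.07).

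Lama4, the alpha chain of vascular and cardiomyocyte laminins, was at 4.43, 5.59 and 5.27 in WT and 5.25, 4.33 and 4.31 in SRAKO. WT2368 lay with the lower SRAKO hearts, and the log2 difference was -0.11 (-0.38 to 0.15; such ranges in brackets are 95% confidence intervals). Lama5, the other alpha chain of endothelial basement membrane, was the strongest alpha chain and the most variable. It was at 7.96, 10.4 and 14.7 in WT and 10.3, 14.4 and 12.1 in SRAKO, with a difference of 0.17 whose interval ran from -0.32 to 0.66. Lama5 made up 46.7% to 59.3% of the laminin alpha FPKM in WT and 51.5% to 62.9% in SRAKO. The shares of Lama2, at 18.5% to 25.9% and 17.4% to 21.2%, and of Lama4, at 21.3% to 27.2% and 19.0% to 26.2%, overlapped too.

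Lamc1 encodes the gamma chain shared by nearly all laminins of the heart. Its FPKM was 23.6, 29.8 and 28.3 in WT and 25.9, 24.4 and 23.4 in SRAKO, a difference of -0.14 (-0.41 to 0.13). WT2368 was again below the other WT hearts and within the SRAKO range. Lama3 and Lamc3 did not pass the filter: Lama3 was at 0.162 to 0.238 in WT and 0.166 to 0.207 in SRAKO, and Lamc3 at 0.0868 to 0.220 and 0.147 to 0.198.

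**Figure D2:**
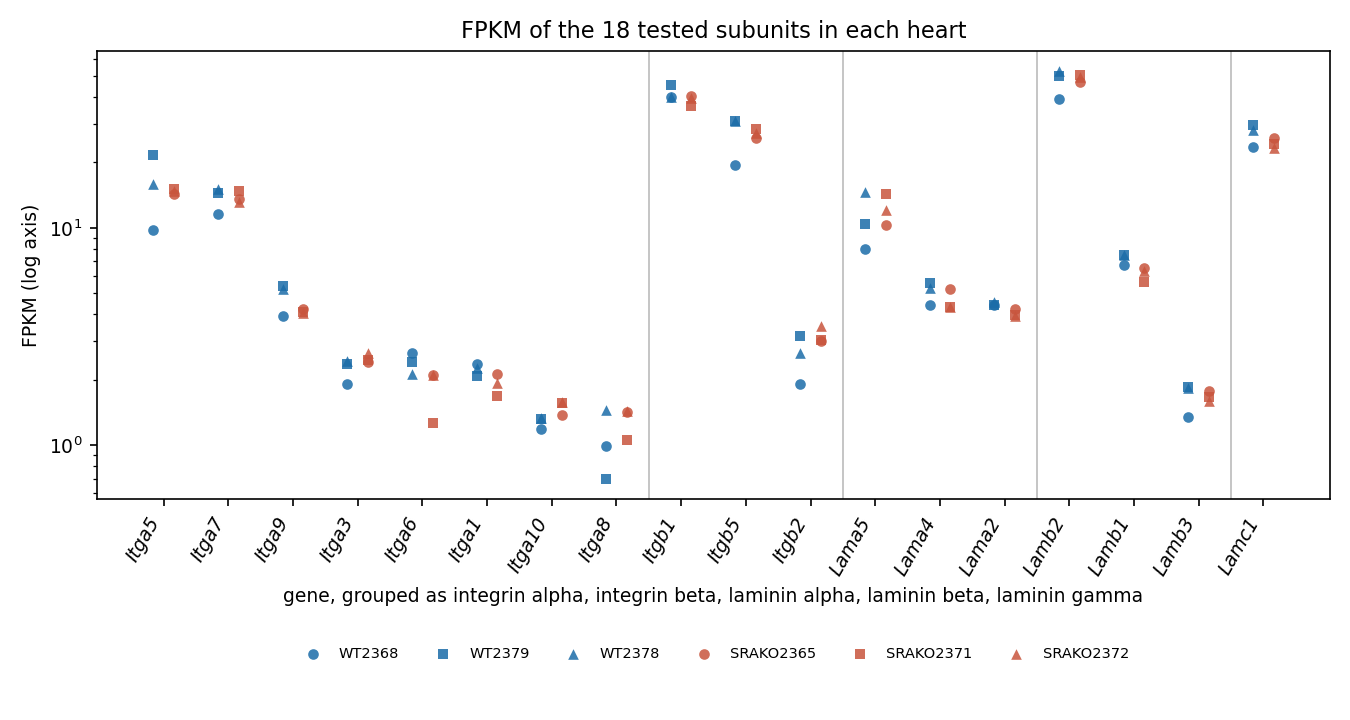
FPKM on a log axis of the 18 tested subunits in each of 6 hearts, blue for WT and red for SRAKO, each symbol a heart, with vertical lines between chain classes. Lamb2, Itgb1, Itgb5 and Lamc1 are the strongest, and WT2368 (blue circles) is the lowest heart in 10 of the 18.

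Itgb1, the beta chain shared by the laminin, collagen and fibronectin receptors, led the integrins. It was at 39.9, 45.5 and 39.8 in WT and 40.4, 36.5 and 39.5 in SRAKO, so that WT2379 alone stood above the others. The means were 41.7 ± 3.23 and 38.8 ± 2.05 (SD, n = 3 each), and the log2 difference was -0.10 (-0.34 to 0.14), or -0.039 without WT2379. WT2379 was the highest heart in 8 of the 18 tested members, Itgb1, Itga5 and Itgb5 among them. It was also the highest in 8 of 9 atrial cardiomyocyte markers, which summed to an FPKM of 8501 there and to 2528 to 3796 in the other 5 hearts, with Nppa at 6576 against 1651 to 2469; none was at 0, and their part in the values was not tested. Itgb1 made up 52.5% to 63.1% of integrin beta FPKM in WT and 51.7% to 56.7% in SRAKO.

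The estimates of the laminin-binding alpha chains differed in sign, but every interval included 0 and the chains were not tested against each other. Itga7, the laminin receptor chain of adult striated muscle, was at 11.5, 14.5 and 15.1 in WT and 13.6, 14.8 and 13.2 in SRAKO. The groups overlapped, with a log2 difference of 0.02 (95% confidence interval -0.26 to 0.31), and the sign turned to -0.09 without WT2368. Itga6, a laminin receptor chain of endothelium and epithelium (chromosome 2, 71786929 to 71858416, plus strand), was at 2.64, 2.41 and 2.13 in WT and 2.10, 1.27 and 2.10 in SRAKO. All SRAKO hearts were below all WT hearts, but WT2378 exceeded SRAKO2365 and SRAKO2372 only slightly and SRAKO2371 was far below the rest. The log2 difference was -0.28 (-0.60 to 0.05), and without SRAKO2371 it was -0.13. SRAKO2371 was the lowest heart in 4 of the 18 tested members, Itga6, Lamb1, Itga1 and Itgb1, and the highest in 7 of 8 adipocyte markers. These summed to 328 there and to 47.6 to 136 in the other 5 hearts, with Ucp1 at 98.9 against 0.834 to 51.1; none was at 0, and their part in the Itga6 values was not tested. Itga3, an alternative laminin receptor chain, was at 1.90, 2.36 and 2.45 in WT and 2.42, 2.47 and 2.66 in SRAKO, a difference of 0.12 (-0.10 to 0.35) that fell to 0.047 without WT2368. Itgb4, which pairs with Itga6 in hemidesmosomes, did not pass the filter, at 0.630 to 0.972 in WT and 0.626 to 1.07 in SRAKO.

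Besides Itgb1, the strongest chains of receptors for fibronectin and other RGD ligands were Itgb5 and Itga5. Itga5, the alpha chain of the classical fibronectin receptor, was at 9.81, 21.6 and 16.0 in WT and 14.3, 15.1 and 14.8 in SRAKO. WT held both the lowest and the highest heart, so its SD was 5.90 against 0.364 in SRAKO, and the difference of -0.03 ran from -0.32 without WT2368 to 0.22 without WT2379. Itgb5, which pairs with Itgav to bind vitronectin, was at 19.4, 31.0 and 30.9 in WT and 25.8, 28.6 and 27.2 in SRAKO. Apart from WT2368 each WT heart exceeded each SRAKO heart, and the difference of 0.04 became -0.18 without WT2368. Itga8, a receptor chain of smooth muscle and fibroblasts for nephronectin, was at 0.989, 0.697 and 1.45 in WT and 1.42, 1.05 and 1.44 in SRAKO. It passed the filter through 3 SRAKO hearts and WT2378, with a difference of 0.18 (-0.16 to 0.52). That value was 0.055 without WT2379 and 0.32 without WT2378.

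Itgav and its weaker partners did not pass the filter. Itgav was at 0.663, 0.834 and 0.630 in WT and 0.610, 0.701 and 0.524 in SRAKO. Itgb3, also a platelet chain, ranged from 0.441 to 0.881 in WT and from 0.589 to 0.786 in SRAKO, and Itgb8 from 0.0437 to 0.112 and from 0.0659 to 0.0831. Itgb6, an activator of latent TGF-beta in epithelia, was at 0.540, 0.452 and 0.357 in WT and 0.323, 0.264 and 0.347 in SRAKO, with no overlap but only a narrow gap between WT2378 and SRAKO2372.

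Of the collagen receptor chains, Itga1 was read from a row shared with Pelo and Gm49395 (5 of its 11 transcripts). That row was at 2.36, 2.07 and 2.26 in WT and 2.12, 1.69 and 1.92 in SRAKO, a difference of -0.15 (-0.37 to 0.06). The row of Itga10, a cartilage collagen receptor, holds 3 of its transcripts beside 8 of other genes. It was at 1.18, 1.31 and 1.33 in WT and 1.38, 1.56 and 1.57 in SRAKO, higher in all SRAKO hearts by 0.14 (-0.06 to 0.33), and it cannot be assigned to Itga10. Itga11, a fibroblast receptor for fibrillar collagen, was at 0.552 to 0.860 in WT and 0.755 to 0.814 in SRAKO. Itga2, the collagen receptor chain of platelets and epithelia, was at 0.0674, 0.125 and 0.114 in WT and 0.0541, 0.0590 and 0.0505 in SRAKO, 53.4% of WT. At an estimated 7.0 fragments in its lowest heart, counting error alone was 37.8%.

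Itga9, a receptor chain for tenascin, osteopontin and VEGF ligands with a role in lymphatic valves, spans chromosome 9 from 118606690 to 118901003 on the plus strand. It was at 3.92, 5.39 and 5.21 in WT and 4.22, 4.10 and 4.06 in SRAKO. The SRAKO hearts lay within a narrow band, below WT2379 and WT2378 and above WT2368. The log2 difference was -0.18 (-0.45 to 0.09). As a share of integrin alpha FPKM, which the scale of a heart does not touch, Itga9 was at 10.9%, 10.3% and 10.9% in WT and 9.75%, 9.36% and 9.37% in SRAKO. That share was lower in 3 of 3 SRAKO hearts (exact permutation test p = 0.1, the smallest possible; adjusted p = 0.45).

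Its lymphatic endothelial neighbours in the tissue, the markers Prox1, Lyve1, Flt4, Ccl21a and Mmrn1, summed to an FPKM of 25.3 to 36.7 in WT and 30.4 to 34.7 in SRAKO, lowest in WT2368 and overlapping. Their part in the Itga9 values was not tested. Itga4, a leukocyte receptor chain for Vcam1 and fibronectin, was weak at 0.208 to 0.246 and 0.191 to 0.242.

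Itgb2, the beta chain of the leukocyte integrins, differed by 0.24 (-0.08 to 0.57), the highest value among the members with all hearts. Without WT2368 it fell to 0.10, under Itga8 at 0.17 and Itga10 at 0.11, and without WT2379 it rose to 0.36 (0.04 to 0.68). Its FPKM was 1.91, 3.17 and 2.66 in WT and 3.0, 3.06 and 3.55 in SRAKO, overlapping because of WT2379. As a share of integrin beta FPKM it was at 3.02%, 3.87% and 3.50% in WT and 4.22%, 4.33% and 4.90% in SRAKO, higher in 3 of 3 SRAKO hearts (exact permutation test p = 0.1, adjusted p = 0.45). Macrophage markers had a higher SRAKO mean in 9 of 10 genes, summing to 111 to 133 in WT and 134 to 153 in SRAKO. WT2368 was the lowest heart in 6 of these 10. Neutrophil markers had a higher SRAKO mean in 9 of 9, summing to 1.25 to 13.1 and 3.51 to 68.3. These sums overlapped, SRAKO2372 was the highest heart in 8 of the 9, and 4 of the 9 passed the filter. Of all tested rows 46.5% had a log2 difference below 0. No macrophage or neutrophil marker was at 0 in all hearts, though Ly6g was at 0 in some. The part of these markers in the Itgb2 values was not tested. Its partner Itgam, outside the rule, was at 0.836, 2.43 and 1.79 in WT and 2.0, 2.0 and 2.31 in SRAKO. Itgb7, a chain of lymphocytes, was at 0.222 to 0.396 and 0.274 to 0.334. The 8 T and NK cell markers summed to 0.406 to 0.959 in WT and 0.673 to 0.896 in SRAKO, and 4 of the 8 had a higher SRAKO mean. Cd3e, Cd3d, Cd3g and Klrb1c stayed below an FPKM of 0.1 in all hearts, while Cd4 was at 0.249 to 0.393 and Nkg7, Gzma and Cd8a reached 0.334, 0.135 and 0.116.

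The remaining non-overlapping share was that of Itga3, at 5.27%, 4.53% and 5.13% of integrin alpha FPKM in WT and 5.60%, 5.65% and 6.13% in SRAKO (exact permutation test p = 0.1, adjusted p = 0.45). Of 18 shares, 4 did not overlap: Itga3 and Itgb2 were higher and Itga9 and Lamb1 lower. Under shuffled labels each share has a probability of 0.1 of separating in either direction. Shares of the same class are not independent: Lamb1 changed by -2.12 points and Lamb2 by 2.13. The integrin alpha sum also includes the rows of Itga1 and Itga10, which hold transcripts of other genes. Whether 4 exceeds what shuffled labels would give was not tested.

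**Figure D3:**
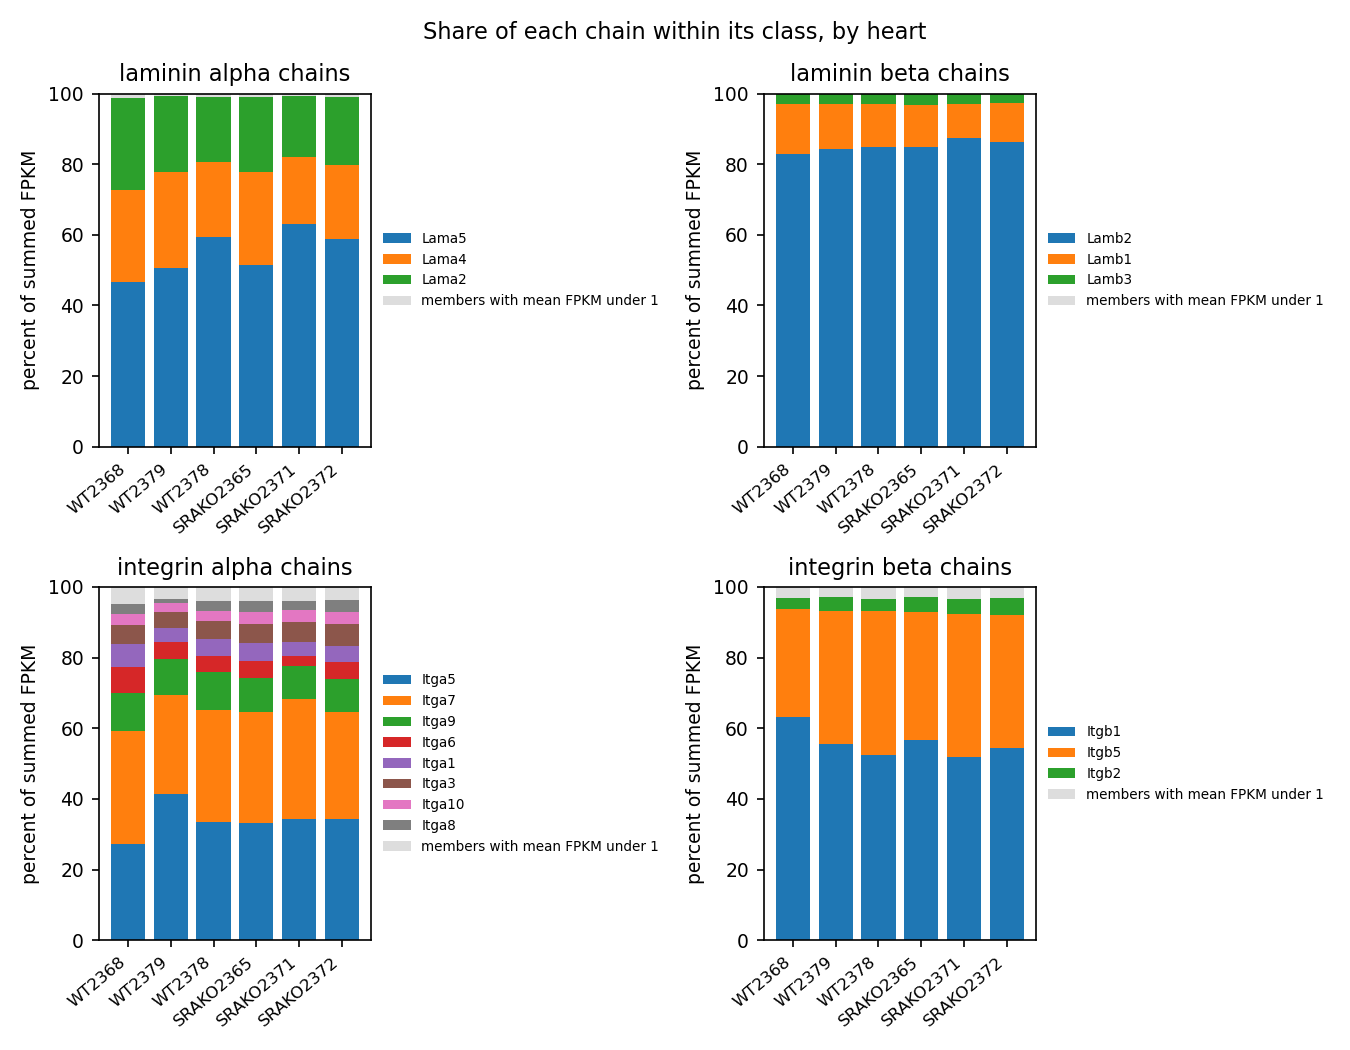
Stacked bars give, for each of 6 hearts, the percent of the summed FPKM of a class held by each chain, for laminin alpha, laminin beta, integrin alpha and integrin beta; grey is the sum of members with a mean FPKM under 1. The orange Lamb1 band is 12.1% to 14.2% in WT and 9.78% to 11.9% in SRAKO.

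The direction of several members turned when WT2368 was left out. Other hearts did this too: Itga7 turned to -0.024 without SRAKO2371 and Lamb3 to -0.018 without SRAKO2365. Itga5 turned to 0.22 without WT2379 and 0.0089 without WT2378. WT2368 was below the mean of the 6 hearts in 14 of the 18 tested members, by a median of -0.14, whereas WT2379 and WT2378 were below it in 4 and 3. Among the SRAKO hearts 9 or 10 members lay below the mean. The SD was larger in WT in 13 of the 18, as in 67.5% of all tested rows. Leaving out a single heart moved the difference by over 1.5 times in 15 of the 18 members, all but Itga10, Lama2 and Lamb1; leaving out WT2368 did so in 11 and WT2379 in 10. Fibroblast markers summed to 335 in WT2368 and to 472 to 492 in the other 5 hearts. Most of that gap lay in Gsn, at 192 against 309 to 320, and the other 7 markers summed to 143 against 155 to 173, with 4 of the 8 lowest in WT2368. Smooth muscle and pericyte markers summed to 304 against 327 to 384, and 7 of 10 were lowest in WT2368. Most of this gap lay in Acta2, at 122 against 145 to 185, since the other 9 summed to 182 against 181 to 211, and Rgs5 was highest in WT2368. The part of these markers in the values of WT2368 was not tested.

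Without WT2368, 14 of the 18 members were lower in SRAKO, where 61.2% of all rows were, and the median difference was -0.12. In that fit 3 members had an unadjusted p under 0.05 by limma, all lower, where 6.8% of all rows had, 5.23% as lower. They were Itga9 at -0.30 (-0.48 to -0.12), Lamc1 at -0.23 (-0.42 to -0.04) and Lamb1 at -0.25 (-0.46 to -0.04), each with an adjusted p = 0.714 by limma with Benjamini-Hochberg adjustment. Without WT2379 instead, 1 member had an unadjusted p under 0.05 by limma, Itgb2, higher at 0.36 (adjusted p = 0.995). There 346 of 10035 rows had one. Without WT2378 it was Itga8, higher at 0.32 (adjusted p = 0.881 by limma), where 473 of 10062 rows had one. Itga6, Itga9, Lama2, Lamb1, Lama4, Lamc1, Itgb1 and the shared row of Itga1 were lower in every fit tried in which they were tested. Itga3, Itga8, Itgb2 and the shared row of Itga10 were higher in every such fit. All fits use the same hearts or some of them, so they are not independent of each other.

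**Figure D4:**
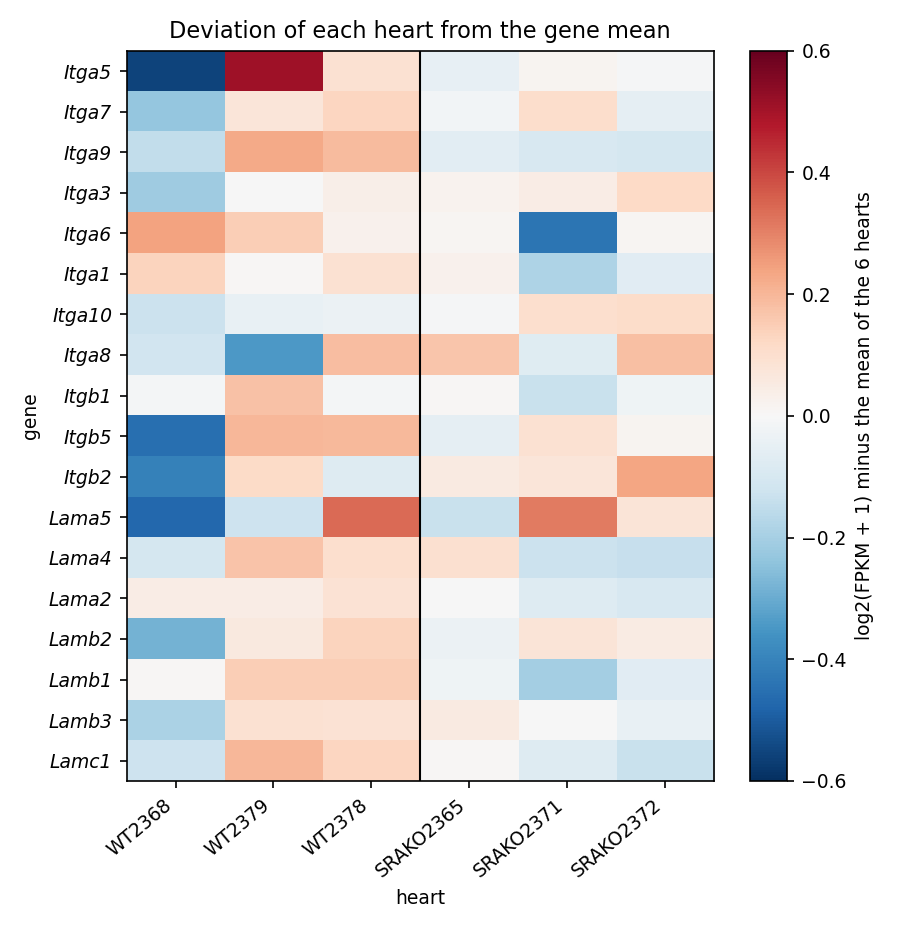
Each cell gives a heart's log2(FPKM + 1) minus the mean of the 6 hearts for 1 of the 18 tested subunits, blue below and red above the mean, with WT hearts left of the line. The WT2368 column is blue in 14 of 18 members, and the WT2379 and WT2378 columns in 4 and 3.

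The partners of the members were followed through 6 lists. The genes named from each list were up to 4 with the smallest unadjusted p by limma in these same hearts. A separation of the genotypes in such a gene is therefore no further evidence, and 8.05% of all tested rows separated. No gene of the 6 lists passed limma with Benjamini-Hochberg adjustment (smallest adjusted p = 0.999 in each list), where 0.0196% of all rows did. Other members of the basement membrane were lower in 15 of 20 tested genes with a median of -0.08. Nid2, Sparc and Papln, all lower, had an unadjusted p under 0.05 by limma, where 3.46% of all rows had, 1.56% as lower and 1.9% as higher. Nid2, a nidogen that ties laminin to collagen IV, was at 6.11, 6.42 and 6.45 in WT and 5.50, 5.53 and 5.12 in SRAKO, below WT in all SRAKO hearts (difference -0.20, SE 0.08). Sparc, a collagen-binding matricellular protein, was at 124, 138 and 137 in WT and 115, 115 and 80.9 in SRAKO (-0.37, SE 0.16). Papln, a papilin of basement membranes, differed by -0.30 and Col15a1, a collagen of the outer basement membrane, by -0.48.

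Genes of the adhesion machinery inside the cell were 16 lower and 20 higher of 36 tested, with a median of 0.01. Parva and Sorbs3 had an unadjusted p under 0.05 by limma. Parva, the parvin that joins Ilk to actin, was at 3.70, 1.81 and 1.43 in WT and 4.07, 3.76 and 4.31 in SRAKO. WT2368 lay just under the lowest SRAKO heart and the other WT hearts far below (difference 0.67, SE 0.23). Lims2, the PINCH adaptor of the same complex, was at 25.9, 13.4 and 31.6 in WT and 13.9, 14.3 and 15.2 in SRAKO (-0.59, SE 0.27). WT2379 lay just under the SRAKO hearts and the other WT hearts above them. Sorbs3, the vinculin-binding vinexin, was at 24.2, 28.2 and 27.4 in WT and 30.5, 31.8 and 34.2 in SRAKO, above WT in all SRAKO hearts (0.27, SE 0.11). Sharpin, an inhibitor of integrin activation, differed by 0.19.

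Dystroglycan complex genes and other laminin receptors were 15 lower and 10 higher of 25, with a median of -0.02 and 0 at an unadjusted p under 0.05. Dag1, dystroglycan itself, was at 31.3, 54.3 and 42.3 in WT and 48.9, 63.5 and 48.6 in SRAKO (0.35, SE 0.21). Sgcb, a sarcoglycan, differed by -0.18, Utrn, the dystrophin relative utrophin, by -0.21, and the syndecan Sdc1 by -0.19. Integrin ligands other than laminin were 19 lower and 11 higher of 30 with a median of -0.11. Postn, lower, and Tnxb, higher, had an unadjusted p under 0.05 by limma. Postn, periostin, which binds Itgav integrins, was at 8.44, 9.94 and 7.60 in WT and 6.77, 6.67 and 7.08 in SRAKO (-0.29, SE 0.11). Tnxb, tenascin X, was at 10.4, 12.0 and 11.9 in WT and 13.5, 14.8 and 13.1 in SRAKO (0.25, SE 0.10). Both genes separated the genotypes in all hearts, as 8.05% of all tested rows did. The other 2 ligands named by rank, Nov and Col6a3, differed by 0.41 and -0.26.

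Tetraspanins and other membrane partners of integrins were 7 lower and 5 higher of 12, led by Cav1, the caveolin of endothelium, at 8.05 ± 1.15 and 10.4 ± 2.41 (0.32, SE 0.17). Of the 7 leukocyte and platelet chains outside the rule 2 were tested, Itgam at 0.25 and Itgbl1 at 0.08. Without WT2368 the lower genes numbered 18 of 20 in the basement membrane list, 26 of 30 among the ligands, 22 of 35 in the adhesion machinery, 18 of 25 among laminin receptors and 11 of 12 among membrane partners, again with 0 adjusted calls by limma; 61.2% of all rows were lower in that fit. At an unadjusted p under 0.05 by limma, the genes of either direction then numbered 3, 8, 3, 4 and 2 in the same order, where 6.8% of all rows did.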

How the data were processed

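The authors deposited FPKM per gene for 6 hearts in a single table, per the file headers. They named StringTie 1.3.4d, HISAT2 2.0.4, edgeR (no version) and cutadapt 1.9, per the submitters' processing notes. These name hg38, whereas 99.6% of 81263 transcript identifiers were found in mouse GENCODE M21 (GRCm38), which gave positions. Poly(A) RNA was captured with oligo(dT) beads, per the labels' protocols. The aligned build and the strand setting were not given in the sources used here, so reads of overlapping genes cannot be told apart.

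Groups came from sample titles. Tests ran in R 4.3.3 with limma 3.58.1 on log2(FPKM + 1), filtered at an FPKM of 1 in 3 of 6 hearts, by genotype with a variance trend, two-sided, at a threshold of 0.05. FPKM keeps no whole reads here, so no count test was run. Class shares were compared for members at a mean FPKM of at least 1 by exact permutation. Code was tested on simulated data. Members, lists and the naming rule (every member, and up to 4 genes of each list by smallest p) were chosen with earlier results of these data known. A symbol was read from its highest-mean row. Fragment numbers use the longest annotated transcript and cover counting error only. The values of 1 member are not reported here.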

Additional observations from a re-analysis of the deposited data

How the results depend on the processing

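No paired analysis was possible because the titles give each heart a number of its own. In each of the 16 alternatives 0 of the members tested there were called by limma after adjustment; 9 were tested with a filter at an FPKM of 5, 30 without a filter, 23 rescaled to equal sums and 18 in the others. Rows called numbered 2 in the main analysis. They numbered 1 with a pseudocount of 0.1, with a filter at an FPKM of 5, or rescaled to equal sums, and 0 without a filter. With WT2368 and SRAKO2371 as a batch term, or without both of them, 0 rows were called. Leaving out 1 heart gave 0 to 6. The labels give no batch. This one was set from ribosomal RNA in these data, with mt-Rnr1 at 4548 in WT2368 and 1896 in SRAKO2371 against 879 to 1122 in the other hearts. Members at an unadjusted p under 0.05 numbered 2 without a filter (30 tested), 1 with equal median ratios, 2 with array weights, 1 with the batch term, 2 without both hearts, and 0 to 3 with 1 heart left out. In the same order, 919 of 25901, 491 of 10176, 675 of 10201, 407 of 10201 and 649 of 9896 of all rows had one. With 1 heart left out, 199 to 684 of all rows did. Lower members numbered 16 of 30 without a filter, 5 of 9 with a filter at an FPKM of 5, 14 without both hearts, and 8 to 14 with 1 heart left out, where the median ran from -0.12 to 0.06. Of all rows, 49.0%, 41.7%, 59.5% and 38.9% to 61.2% were lower in the same order. With equal median ratios 9 of 18 members and 50.8% of all rows were lower, and with array weights 13 of 18 members and 57.5%.

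With array weights the sign turned to -0.029 for Lamb2, -0.062 for Itga7, -0.13 for Itgb5 and -0.054 for Lamb3. Without both hearts it turned to -0.090, -0.14, -0.22 and -0.082 for the same genes and to -0.14 for Lama5. With 1 heart left out, differences ran from -0.067 to 0.14 for Lamb2, -0.089 to 0.092 for Itga7, -0.32 to 0.22 for Itga5, -0.18 to 0.15 for Itgb5, -0.022 to 0.38 for Lama5 and -0.084 to 0.056 for Lamb3; the cause was not tested. Summing rows of a symbol changed nothing, since each member had 1 row. Lists without WT2368 were an alternative chosen after seeing the data. Depth limits the weakest members: Itga2 rested on about 7.0 fragments in its lowest heart and Lamb2 on 3216.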

Other observations

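Some ratios between chains of the same class varied widely between hearts of a genotype. The Itga7 to Itga6 ratio was 4.37, 6.03 and 7.07 in WT2368, WT2379 and WT2378 and 6.45, 11.7 and 6.29 in SRAKO2365, SRAKO2371 and SRAKO2372. Lama2 to Lama5 was 0.554, 0.426 and 0.312 in WT and 0.412, 0.276 and 0.325 in SRAKO, while Lama2 to Lama4 stayed between 0.790 and 0.995 in all 6 hearts. For Lamb1 to Lamb2 the mean ratio was 0.155 ± 0.0153 over the WT hearts (SD, n = 3) and 0.126 ± 0.0140 over the SRAKO hearts (SD, n = 3).

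Summed over a class, integrin alpha FPKM was 36.1, 52.1 and 47.7 in WT and 43.2, 43.8 and 43.3 in SRAKO, and integrin beta FPKM 63.2, 82.0 and 75.9 against 71.3, 70.5 and 72.5. The SRAKO hearts were closer to each other than the WT hearts in both sums.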
